A study of Homo sapiens
Mus musculus with 24 samples.

Results

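Cytochrome P450 (CYP) and aldehyde dehydrogenase (ALDH) genes were followed in 24 xenograft tumors, on the human side in the tumor cells and on the murine side in the host tissue. The members were the genes whose symbol begins with CYP, a family number and a subfamily letter, or with ALDH and a number, apart from CYP51A1 and Cyp51, a rule on names alone. They were 39 of the 18880 genes of the human table (22 CYP and 17 ALDH) and 38 of the 16667 genes of the murine table (20 Cyp and 18 Aldh). A symbol was given for 13621 of the human and 13676 of the murine identifiers.

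Each tumor came from a different female mouse of the strain B6/Rag1KO, which lacks mature lymphocytes, so no group had T or B cells of the host. MDA-MB-231, a single established human line of triple-negative breast cancer, was injected under the skin at the base of the neck at 14 weeks of age, per the labels. CTRL mice (n = 4) ate a high fat diet and received saline every week. Chemo mice (n = 5) received doxorubicin and cyclophosphamide every week on the high fat diet, MC mice (n = 5) ate the high fat diet with moringa seed concentrate, and MC + Chemo mice (n = 6) had both. Lean mice (n = 4) ate a lean diet and served as the diet control. Treatment began in tumors above 200 mm3 and lasted 4 weeks. Libraries carry the name of the group with the number of the mouse. The title of MC + Chemo 5 puts it in MC + Chemo, which was followed, and 1 other label field gives MC.

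P450 enzymes are heme proteins that insert an oxygen atom into drugs, steroids, retinoids, vitamin D, fatty acids and eicosanoids, with electrons handed over by POR or by adrenodoxin. Aldehyde dehydrogenases oxidize aldehydes to acids with NAD or NADP as acceptor, in amino acid breakdown, ethanol metabolism and the synthesis of retinoic acid. Both families bear on cyclophosphamide, a prodrug that hepatic P450s turn into its active form and that aldehyde dehydrogenases, ALDH1A1 among them, inactivate at the stage of aldophosphamide. These roles are background and were not measured here.

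The libraries held 7796231 to 17621273 human and 3664056 to 9892470 murine counts. They are QuantSeq 3′ libraries, which give about 1 read per transcript, so a normalized count is not divided by transcript length. The human and murine tables were scaled separately and their levels are not compared. CTRL 17 and CTRL 44 stood apart on the human side. Their VIM was 71918 and 50209 normalized counts against 4402 to 24619 in the other 22 libraries, and their ZEB1 was 1344 and 1376 against 70.8 to 568. CDH1, the epithelial cadherin that MDA-MB-231 cells are known to nearly lack, was 2.73 and 312 there against 633 to 4472 elsewhere. EPCAM was 73.8 and 552 against 1207 to 5399. CDH1 and EPCAM thus went against the labelled line in the other 22 libraries, while CD44 (3783 to 5652) and CAV1 (2771 to 7954), which the line expresses, were high in all 24. Every human comparison with CTRL has these 2 libraries among its 4 controls. Counts of members by p and many of the estimates are also given without them, but not all estimates. On the murine side MC 41 and MC + Chemo 52 stood apart in the sum of 12 adipocyte markers, 116892 and 114501 normalized counts against 592 to 34499 in the other 22. CTRL 17 stood apart there too. Its sum of 8 endothelial markers was 521 against 889 to 4788 in the other libraries, and its sum of 8 fibroblast markers, 97126, was the highest.

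On the human side CYP20A1, an orphan P450 with no settled substrate, was the most abundant P450 (mean 473 normalized counts over the 24 libraries). CYP4V2, a fatty acid hydroxylase, followed at 233, then CYP1B1, which oxidizes estradiol and aromatic hydrocarbons, at 181. CYP2R1, the vitamin D 25-hydroxylase, averaged 115 and CYP27A1, the sterol 27-hydroxylase, 109. Among the aldehyde dehydrogenases 4 lay close together. They were ALDH7A1 (lysine breakdown) at 461, ALDH6A1 (valine breakdown) at 453, ALDH9A1 (carnitine synthesis) at 449.5 and ALDH18A1 (proline synthesis) at 381, with ALDH1B1 of the mitochondria at 360.0. ALDH1A1 was near the floor at 4.41, and CYP39A1 was lowest at 2.90. Of the 39 human members, 32 passed the filter on low counts. CYP4F3, CYP2W1, CYP27B1, CYP2D7, CYP39A1, ALDH8A1 and ALDH1A1 did not. Reads of near-identical genes such as CYP2D7 or CYP4F2 and CYP4F3 can be split uncertainly by the counting.

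On the murine side Aldh2, the mitochondrial enzyme of acetaldehyde oxidation, was highest (mean 732 normalized counts). Cyp1b1 followed at 554 and Cyp26b1, which breaks down retinoic acid, at 404.5. Then came Cyp4f18, a leukotriene B4 hydroxylase of myeloid cells, at 181, Cyp4v3 at 159 and Cyp20a1 at 134. Aldh9a1 (125), Aldh6a1 (119.9), Aldh7a1 (112) and Aldh3a2 (87.9), which oxidizes fatty aldehydes, completed the leading murine members. The filter kept 35 of the 38, and Cyp39a1, Cyp26a1 and Cyp46a1 did not pass. In bulk tumors fewer cells of a type and less RNA per cell cannot be told apart, and this holds for every level below.

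**Figure D1:**
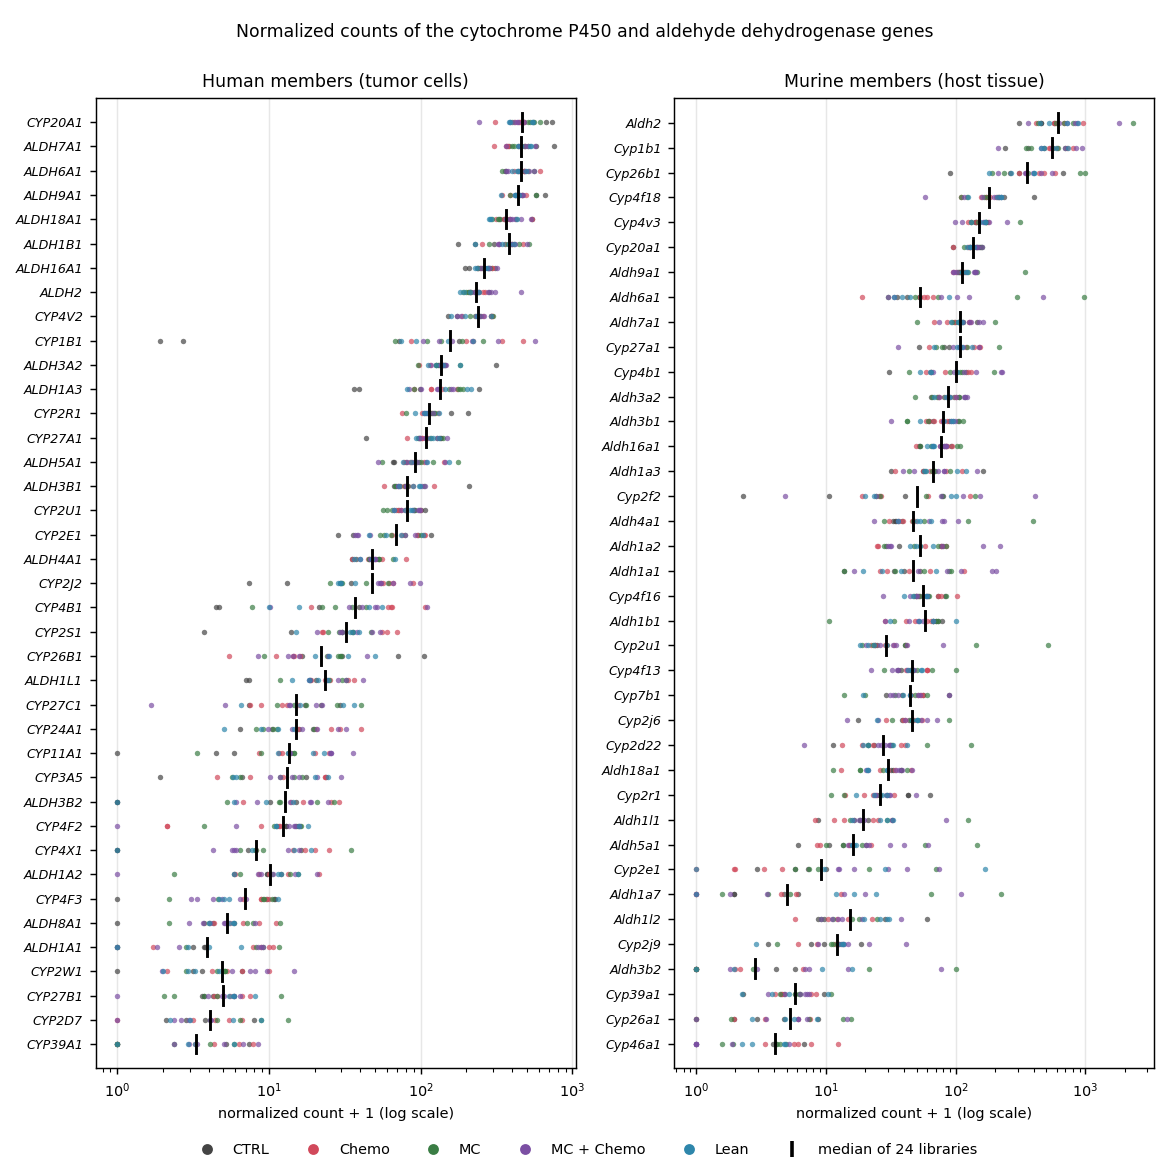
Normalized counts plus 1 (log axis) of the 39 human members (left) and the 38 murine members (right), with 1 point per library colored by group and a bar at the median of the 24 libraries. CYP20A1 leads the human side and Aldh2 the murine side. CYP1B1 is near 1 in 2 CTRL libraries and Aldh6a1, Cyp2u1 and Cyp2e1 each have libraries far to the right.

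Summed over each family, the human levels of the groups overlapped. The ALDH sum was 2676 to 3594 normalized counts in CTRL (median 3166), 2957 to 3245 in Chemo, 3065 to 3360 in MC, 3080.2 to 3952 in MC + Chemo and 2949 to 3139.7 in Lean. The CYP sum was 1383 to 1684 in CTRL, 1288 to 1824 in Chemo, 1400.4 to 1611 in MC, 1306 to 1944 in MC + Chemo and 1166 to 1606 in Lean. On the murine side the Aldh sum was 1188 to 1558 in CTRL and 1178 to 1733 in Chemo, and reached 5320.1 in MC 41 and 3662 in MC + Chemo 52.

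The comparison of Chemo with CTRL asks what the drugs did to the tumor cells. By edgeR 0 of the 32 tested human members passed an adjusted p of 0.05, as did 0% of the 16434 human genes tested. At an unadjusted p below 0.05 there were 14 members, 43.8% of the 32 against 18.2% of all genes. Of these, 8 had a higher and 6 a lower estimate in Chemo, against 7.84% and 10.4% of all genes. The median log2 fold change was 0.26 over the members and -0.02 over all genes. By DESeq2, which called 3.88% of all genes, CYP2J2 was higher and CYP26B1 lower. The libraries of the 2 groups did not overlap for 2 of the 32 members, CYP2J2 and CYP26B1, against 3.24% of all genes. The counts depended on which CTRL libraries entered. Without CTRL 17 and CTRL 44 neither edgeR nor DESeq2 called any member or any other gene (0% of all genes by both), and 1 of 32 members had an unadjusted p below 0.05, against 3.31% of all genes. Without CTRL 31 edgeR called 6 of 33 members (ALDH1A3, CYP11A1, CYP1B1, CYP26B1, CYP2J2 and CYP4B1) against 8.73% of all genes, and DESeq2 12 of 33 against 13.2%. The comparisons with CTRL below share the 4 CTRL libraries, so their values are not independent of each other.

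For MC against CTRL edgeR called 0 of the 32 members and 0% of all human genes, and DESeq2 called 0 of 33 members and 0.0998% of all genes. An unadjusted p below 0.05 was reached by ALDH1B1, CYP26B1, CYP2J2 and CYP2R1, which is 12.5% of the members against 10.7% of all genes. The groups overlapped for all 32 (1.47% of all genes did not). Without CTRL 17 and CTRL 44 such a p was reached in MC by 0 of 32 members by edgeR, against 5.02% of all genes. For MC + Chemo against CTRL edgeR called 1 member, CYP2J2, which was higher, against 2.09% of all genes. DESeq2 called 4 of 36 members, namely CYP2J2 and CYP11A1 as higher and CYP20A1 and CYP26B1 as lower, against 7.16% of all genes. The median log2 fold change was 0.15 in MC and 0.18 in MC + Chemo, and -0.02 over all genes in both. The unadjusted count in MC + Chemo was 9 of 32 members against 22.7% of all genes, and CYP2J2 and CYP20A1 did not overlap, against 5.26% of all genes. With CTRL 17 and CTRL 44 left out edgeR called 0 of 32 members and 0% of all genes, DESeq2 called 0 of 25 members and 0.298% of all genes, and 3 of 32 members had an unadjusted p below 0.05 by edgeR, against 11.8% of all genes. With CTRL 31 left out edgeR called 8 of 33 members against 8.94% of all genes, and DESeq2 9 of 36 against 13.1%. The study had named CYP2J2, CYP11A1, CYP20A1, CYP26B1 and murine Cyp2e1 from these same libraries, so their calls are not independent of that choice.

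CYP2J2 makes epoxyeicosatrienoic acids, signaling lipids of arachidonic acid, and was the member with the firmest difference (ENSG00000134716). Its normalized count in CTRL was 6.38 (mouse 17), 28.2 (31), 12.1 (44) and 33.7 (70). Chemo tumors had 64.5, 53.7, 55.4, 60.4 and 87.9, and MC + Chemo tumors 50.9 to 98.4 with a median of 59.1. The lowest tumor of either group was above the highest CTRL tumor, and the lowest CTRL values were those of CTRL 17 and CTRL 44. MC tumors had 24.4, 60.0, 29.1, 42.3 and 28.7, and Lean tumors 27.7, 29.0, 28.2 and 35.7, both overlapping CTRL. The mean was 20.1 ± 12.9 (SD) in CTRL, 64.4 ± 13.8 in Chemo and 67.5 ± 19.6 in MC + Chemo. On the log2 scale the difference was 1.72 in MC + Chemo (SE 0.37, adjusted p = 0.0327 by edgeR and 0.00056 by DESeq2) with 6 of 6 tumors above all CTRL. In Chemo it was 1.66 (SE 0.38, adjusted p = 0.0764 by edgeR and 0.0026 by DESeq2) with 5 of 5 above. The two-sided exact permutation p was 0.0048 for MC + Chemo and 0.0079 for Chemo, the smallest these group sizes can give. MC alone gave 0.86 (SE 0.38, adjusted p = 0.451 by edgeR). MC + Chemo and Chemo differed by 0.06 (SE 0.32), and the test of the interaction gave -0.80 (SE 0.50, unadjusted p = 0.123).

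The size of the CYP2J2 difference depended on the controls. When CTRL 17 and CTRL 44 were left out it was 1.10 (SE 0.35, unadjusted p = 0.0051, adjusted p = 0.258 by edgeR) in MC + Chemo and 1.04 (SE 0.36, unadjusted p = 0.0085, adjusted p = 1.00) in Chemo, and the remaining 2 CTRL tumors still lay below all 11 drug-treated tumors. The edgeR call in MC + Chemo was lost when any of 4 libraries was left out, with an adjusted p of 0.121 for CTRL 17, 0.0856 for CTRL 44, 0.0759 for mouse 47 and 0.0681 for mouse 52 of MC + Chemo. It was also lost where the fit held only the 2 groups compared (0.205). The log2 fold change in these fits was 1.43, 1.56, 1.64, 1.57 and 1.71 in the same order. DESeq2 kept its call without CTRL 17 (adjusted p = 0.0104) and without CTRL 44 (0.0076), and lost it without both (0.111).

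CYP26B1, which oxidizes retinoic acid and so ends its signal, was lower in the drug-treated tumors by DESeq2 (ENSG00000003137). The CTRL tumors had 104 (mouse 17), 29.2 (31), 69.9 (44) and 15.4 (70) normalized counts. Chemo tumors had 15.1, 4.48, 10.2, 13.4 and 13.6, all below CTRL, although the nearest values were 15.1 and 15.4. MC + Chemo tumors had 7.41 to 43.3 (median 14.0), and MC tumors 23.0, 28.2, 27.3, 8.25 and 28.7. The log2 fold change was -2.26 in Chemo (SE 0.54, adjusted p = 0.0782 by edgeR and 0.0070 by DESeq2, exact permutation p = 0.0079). It was -1.52 in MC + Chemo (SE 0.49, adjusted p = 0.0857 by edgeR and 0.0449 by DESeq2, exact permutation p = 0.0667). The highest values were those of CTRL 17 and CTRL 44, and without them the estimates were -0.95 in Chemo, -0.22 in MC + Chemo and 0.06 in MC, where the full fit gave -1.25 (SE 0.52). The interaction estimate of 1.98 (SE 0.73) had an unadjusted p of 0.0133 and an adjusted p of 0.511 by edgeR with all CTRL libraries in the fit. It is not given without CTRL 17 and CTRL 44.

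The enzymes that make retinoic acid gave no call with all CTRL libraries in the fit. ALDH1A3 was 38.3, 241, 35.4 and 97.5 in CTRL and 89.2 to 171 in Chemo, with CTRL 17 and CTRL 44 lowest of all 24 libraries (log2 fold change 0.28, SE 0.41, and -0.43 without them). ALDH1A2 was below 21 normalized counts in every library (0.36, SE 0.63). ALDH1A1, which also inactivates aldophosphamide, was below 11 everywhere and listed at 0 in 4 libraries. It did not pass the filter of edgeR, and where DESeq2 gave an adjusted p it was 0.493 or more. CYP3A5, a drug-metabolizing P450, was 0.911 to 22.7 in CTRL and 3.57 to 22.4 in Chemo, with a log2 fold change of 0.20 (SE 0.62).

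CYP20A1 was lower in MC + Chemo by DESeq2 (ENSG00000119004). The CTRL tumors had 734, 547, 668 and 479.8 normalized counts (mice 17, 31, 44 and 70), and MC + Chemo tumors 243 to 476 with a median of 418, so the groups did not overlap. Chemo tumors had 447, 480.3, 308, 443 and 414, of which 4 of 5 lay below all CTRL tumors. MC tumors had 560.2, 398, 610.0, 504 and 523. The log2 fold change was -0.63 in MC + Chemo (SE 0.17, adjusted p = 0.0567 by edgeR and 0.0265 by DESeq2, exact permutation p = 0.0048). In Chemo it was -0.55 (SE 0.18, adjusted p = 0.133 by edgeR and 0.0905 by DESeq2). Without CTRL 17 and CTRL 44 the estimates were -0.39 and -0.31. That of MC went from -0.23 (SE 0.18) to 0.01.

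CYP11A1 cuts the side chain of cholesterol, the entry step of steroid hormone synthesis, and was higher in MC + Chemo by DESeq2 (ENSG00000140459). It was a low gene with 346 reads in all libraries together. CTRL tumors had 0, 13, 3.45 and 4.91 normalized counts, where the 0 of CTRL 17 allows up to 2.73 (counting error only). MC + Chemo tumors had 12.5 to 34.6 (median 24.4), Chemo tumors 7.53, 19, 23.7, 11.2 and 10.7, and MC tumors 13.5, 2.35, 7.89, 12.4 and 13.6. CTRL 31 overlapped all of these groups. The difference on the log2 scale was 2.06 in MC + Chemo (SE 0.60, adjusted p = 0.0637 by edgeR and 0.0082 by DESeq2, exact permutation p = 0.0143) and 1.44 in Chemo (SE 0.62, adjusted p = 0.223 by edgeR). Without CTRL 17 and CTRL 44 these were 1.33 (unadjusted p = 0.0356, adjusted p = 0.395 by edgeR) and 0.71. In Lean tumors it was 10.5 to 22.1, with a log2 fold change of 1.59 over all CTRL libraries (SE 0.61, adjusted p = 0.685 by edgeR).

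**Figure D2:**
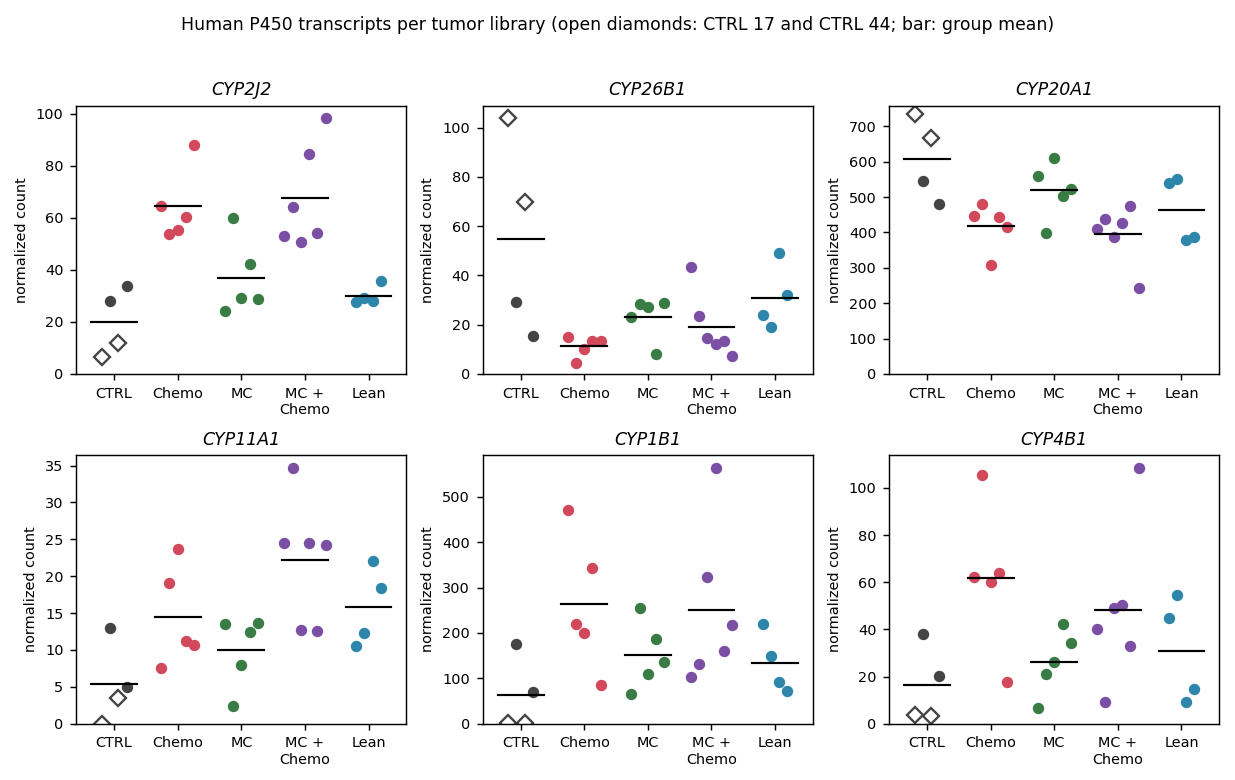
Normalized counts of 6 human P450 genes per tumor in the 5 groups, with 1 point per library, a bar at the group mean and open diamonds for CTRL 17 and CTRL 44. All 11 Chemo and MC + Chemo tumors lie above the 4 CTRL tumors for CYP2J2, and the open diamonds are the extreme CTRL values in CYP2J2, CYP26B1, CYP20A1, CYP1B1 and CYP4B1.

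CYP1B1, a target gene of the aryl hydrocarbon receptor, passed no adjusted test with all CTRL libraries in the fit (ENSG00000138061). It was 0.911 and 1.73 normalized counts in CTRL 17 and CTRL 44, from 1 and 2 reads, and 176 and 70.9 in CTRL 31 and CTRL 70. Chemo tumors had 471, 219, 199, 342 and 85.7, MC tumors 66.3, 255, 109, 187 and 135, and MC + Chemo tumors 103 to 563 (median 188). The log2 fold change was 2.08 in Chemo (SE 0.83, adjusted p = 0.195 by edgeR) and 1.99 in MC + Chemo (SE 0.81, adjusted p = 0.150 by edgeR). They were 1.09 and 1.00 without CTRL 17 and CTRL 44. CYP4B1, which acts on fatty acids and some protoxins, was chosen after its values were seen and had the same 2 low controls, 3.65 and 3.45 against 37.9 and 20.3 in CTRL 31 and CTRL 70. Its log2 fold change was 1.91 in Chemo (SE 0.68, adjusted p = 0.159 by edgeR) and 1.08 without those controls.

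The vitamin D enzymes passed no adjusted test either with all CTRL libraries in the fit. CYP2R1, which makes the circulating 25-hydroxy form, was 204, 114, 156 and 112 normalized counts in CTRL and 74.6 to 129 in Chemo, with CTRL 17 and CTRL 44 highest of all 24 libraries. The log2 differences from CTRL were -0.47 in Chemo (SE 0.19), -0.41 in MC (SE 0.19), -0.43 in MC + Chemo (SE 0.18) and -0.44 in Lean (SE 0.20). Without those 2 libraries they were -0.09, -0.03, -0.04 and -0.05. CYP24A1, which degrades vitamin D, was 5.47 to 18.4 in CTRL and 14.6 to 39.2 in Chemo (log2 fold change 1.05, SE 0.42, unadjusted p = 0.0209, and 0.59 without them). It was chosen after its values were seen. CYP27A1 differed by -0.04 in Chemo (SE 0.25) and 0.14 in MC + Chemo (SE 0.24).

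The abundant human aldehyde dehydrogenases gave small differences. ALDH1B1 was 225, 361, 174 and 302 normalized counts in CTRL and 280.1 to 513 in MC, with log2 fold changes of 0.47 in Chemo (SE 0.22), 0.59 in MC (SE 0.22) and 0.55 in MC + Chemo (SE 0.21, adjusted p = 0.130 by edgeR). Leaving out CTRL 17 and CTRL 44, the MC and MC + Chemo estimates were 0.27 and 0.23. ALDH7A1 was 752, 457, 569.7 and 379 in CTRL and 301 to 484 in Chemo, with a log2 fold change of -0.52 (SE 0.17, adjusted p = 0.137 by edgeR) and -0.15 without those libraries. For ALDH6A1 the log2 fold change was between 0.15 and 0.24 in the 3 treated groups (SE 0.15 to 0.16), and for ALDH18A1 between -0.23 and 0.06 (SE 0.17). ALDH9A1 was -0.32 in Chemo (SE 0.14) and -0.03 without CTRL 17 and CTRL 44. None of these passed an adjusted test by edgeR or DESeq2.

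**Figure D3:**
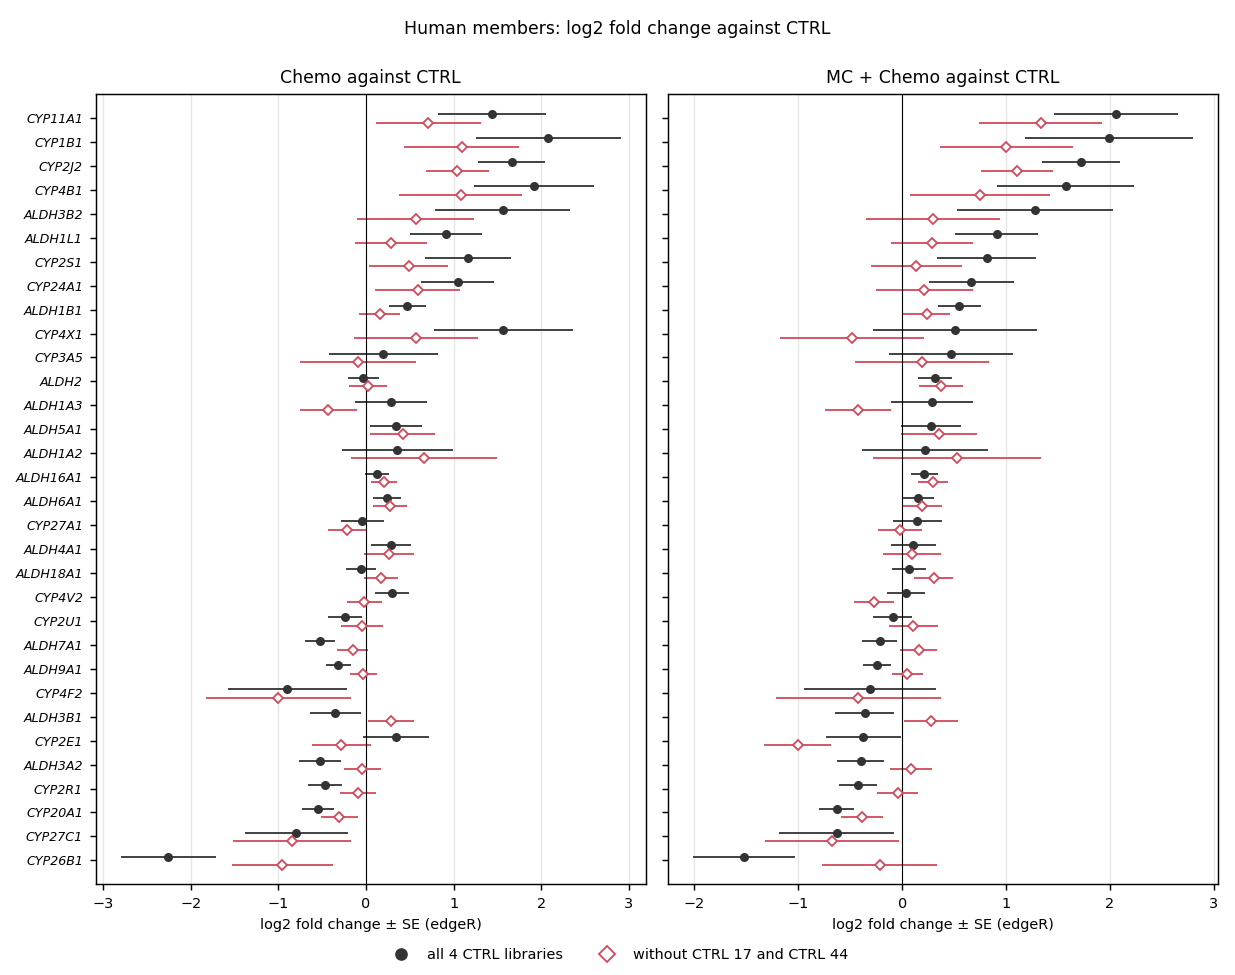
Log2 fold change (x axis, with SE bars) of the 32 tested human members in Chemo (left) and MC + Chemo (right) against CTRL, from edgeR with all 4 CTRL libraries (filled circles) and without CTRL 17 and CTRL 44 (open diamonds). CYP2J2 lies at 1.66 and 1.72 with all controls and at 1.04 and 1.10 without those 2, and CYP26B1 moves from -2.26 and -1.52 to -0.95 and -0.22.

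MC + Chemo was set against Chemo to ask what the concentrate added to the drugs. By edgeR 0 of the 32 human members and 0% of all genes passed, and by DESeq2 0 of 36 members and 0.107% of all genes. At an unadjusted p below 0.05 edgeR had 2 members, against 10.4% of all genes, and no member was without overlap (1.87% of all genes). CYP2E1, which oxidizes ethanol, was 35.9 to 89.95 normalized counts in MC + Chemo and 63.6 to 106 in Chemo (log2 fold change -0.72, SE 0.34). ALDH2 was 224 to 458 in MC + Chemo and 206 to 264 in Chemo (0.34, SE 0.16), with the highest value in MC + Chemo 52. CYP2E1 and ALDH2 were chosen after their values were seen. The interaction of MC and Chemo had 0 of 32 members called by edgeR (0% of all genes) and 0 of 39 by DESeq2 (0.0106%), with 4 members at an unadjusted p below 0.05 against 9.74% of all genes. Without CTRL 17 and CTRL 44 that last count was 0 of 32 by edgeR, against 3.42% of all genes. Lean against CTRL likewise had 0 of 32 by edgeR (0%) and 0 of 39 by DESeq2 (0.0106%). Its 3 members at an unadjusted p below 0.05 were ALDH9A1, CYP11A1 and CYP2R1, against 7.08% of all genes, and no member was without overlap (2.21% of all genes). Without CTRL 17 and CTRL 44 there were 0 of 32 members at that p by edgeR, against 4.76% of all genes.

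The host tissue was described from the murine table. Chemo against CTRL had 0 of 35 murine members called by edgeR and 0 of 38 by DESeq2, against 0% and 0.132% of all murine genes. The only member at an unadjusted p below 0.05 was Cyp2r1, against 4.53% of all genes. The only one without overlap was Aldh1b1, against 1.39% of all genes, which was 76.8, 72.4, 69.2 and 65.4 normalized counts in CTRL and 58.8, 64.0, 40.3, 48 and 27.6 in Chemo (log2 fold change -0.58, SE 0.38, unadjusted p = 0.142). Lean against CTRL had 0 of 35 by edgeR and 0 of 38 by DESeq2, against 0% and 0.00601% of all genes, with 2 members at an unadjusted p below 0.05 (3.11% of all genes). Aldh18a1 did not overlap there, with 31.7, 30.9, 37.2 and 37.1 in CTRL and 20.1, 19.7, 28.7 and 28.8 in Lean (log2 fold change -0.49, unadjusted p = 0.206), against 2.93% of all genes.

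MC against CTRL also had 0 of 35 murine members and 0% of all genes called by edgeR. DESeq2 called 2 of 37 members, Cyp2u1 and Aldh4a1, both higher, against 1.76% of all genes. At an unadjusted p below 0.05 there were 11 members, 31.4% of the 35 against 11.8% of all genes, and 9 of them had a higher estimate in MC, against 8.73% of all genes. They included Aldh2, Aldh4a1, Aldh5a1 and Aldh6a1 of the mitochondria and Cyp2u1, a fatty acid hydroxylase. The groups overlapped for every member, where 2.09% of all genes did not overlap. The median log2 fold change was 0.47 over the members and 0.00 over all genes. Without CTRL 17 and CTRL 44 neither tool called a murine member in Chemo, MC or MC + Chemo against CTRL, and in MC 3 of 36 members had an unadjusted p below 0.05 by edgeR (5.58% of all genes), with a median of 0.18. Without MC 41 neither edgeR nor DESeq2 called a member, 1 of 34 members had an unadjusted p below 0.05 (5.04% of all genes) and the median was 0.11.

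MC 41 carried most of the difference. Cyp2u1 (ENSMUSG00000027983) was 28.8, 39.6, 23.1 and 23.9 normalized counts in CTRL and 141, 511, 22.0, 39.6 and 18.1 in MC 6, 41, 42, 48 and 59, so that the other 3 MC tumors lay between 18.1 and 39.6. Aldh4a1 of proline breakdown (ENSMUSG00000028737) was 37.4, 32.8, 32.0 and 33.9 in CTRL and 124, 390.0, 26.8, 45.6 and 55.7 in MC. Aldh6a1 (ENSMUSG00000021238) was 41.3, 52.1, 34.6 and 50.9 in CTRL and 295, 971, 29.2, 72.3 and 47.9 in MC. In all 3 genes MC 41 was highest and MC 6 next, with MC 42 below every CTRL tumor. The log2 fold changes were 2.33 for Cyp2u1 (SE 0.73, adjusted p = 0.251 by edgeR and 0.0403 by DESeq2, exact permutation p = 0.357), 1.90 for Aldh4a1 (SE 0.59, adjusted p = 0.251 by edgeR and 0.0437 by DESeq2, exact permutation p = 0.143) and 2.64 for Aldh6a1 (SE 0.90, adjusted p = 0.271 by edgeR). Without MC 41 they were 0.89, 0.85 and 1.26.

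Aldh5a1, which oxidizes succinic semialdehyde, was also highest in MC 41 and next in MC 6, with 57.1 and 144 in MC 6 and MC 41 and 5.13 to 19.5 in CTRL (log2 fold change 1.98, SE 0.68, and 0.94 without MC 41). Aldh2 was 574, 451, 452 and 304 in CTRL and 683, 2305, 429, 794 and 593 in MC (1.11, SE 0.44, edgeR unadjusted p = 0.0201). Aldh1a7, a near copy of Aldh1a1 whose reads may be shared with it, was 63.5 in MC 6 and 221 in MC 41 and below 6 in CTRL and in the other 3 MC tumors. Aldh1a7 was chosen after its values were seen. MC 41 held the highest value of 15 of the 35 tested murine members, 42.9% against 18.5% of all tested genes.

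The same libraries were high in adipocyte markers, all 12 of which were present. Their summed level was 592 to 8664 normalized counts in CTRL, 1178 to 8941 in Chemo, 2137 to 116892 in MC, 1369 to 114501 in MC + Chemo and 1154 to 21846 in Lean. The next highest after MC 41 and MC + Chemo 52 were MC 6 (34499), MC + Chemo 5 (23071) and Lean 21. Ucp1, the marker of brown fat among the 12, was 27205 in MC 41, 5396 in MC 6, 2069 in MC + Chemo 52 and 488 in MC + Chemo 5. It was 5.69 to 173 in the other libraries. Skeletal muscle markers were 116 to 181 in CTRL and reached 41708 in MC 41 and 67473 in MC + Chemo 43. From a list of 7 sebaceous gland markers only 2, Mogat1 and Elovl3, were present. Their sum was 495 in MC 41, of which Elovl3 made up 443, 65.1 in MC 6 and 66.0 in MC + Chemo 52. With the rest of the list absent, these 2 genes cannot tell whether gland tissue was present. Of 8 hepatocyte markers only Fgb was present, at 0 to 37.2. The part of fat and muscle in the murine differences was not tested. MC 41 and MC 42 were also among the 3 libraries with an extra RNA cleanup.

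**Figure D4:**
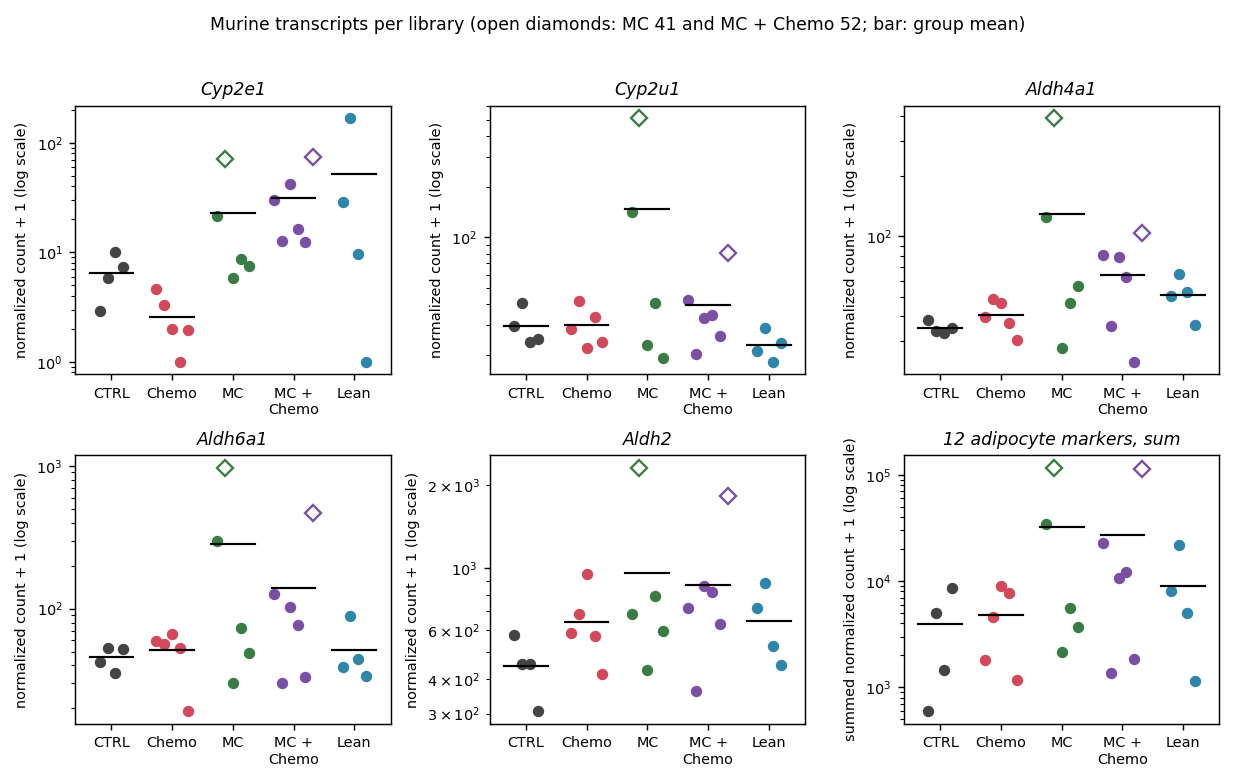
Normalized counts plus 1 (log axis) of 5 murine members and of the sum of 12 adipocyte markers per tumor in the 5 groups, with a bar at the group mean and open diamonds for MC 41 and MC + Chemo 52. MC 41 is the highest MC tumor in every panel, and the adipocyte sum is highest in MC 41 and MC + Chemo 52.

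Cyp2e1, the ethanol-oxidizing P450 of liver and fat (ENSMUSG00000025479), differed most between MC + Chemo and Chemo. It was 3.60, 2.33, 1.01, 0 and 0.950 normalized counts in Chemo, from 7 reads in the 5 tumors together, and the 0 of Chemo 34 allows up to 2.44. MC + Chemo tumors had 11.3 to 73.1 with a median of 22.2, from 202 reads. CTRL tumors had 1.92, 4.83, 8.97 and 6.28, MC tumors 20.6, 69.8, 4.77, 7.75 and 6.47, and Lean tumors 27.7, 168, 8.62 and 0. All 6 MC + Chemo tumors were above every Chemo and every CTRL tumor. The log2 fold change between MC + Chemo and Chemo was 4.28 (SE 0.86, edgeR unadjusted p = 7.1e-05, adjusted p = 0.182 by edgeR and 0.0039 by DESeq2, exact permutation p = 0.0022, the smallest possible). Without MC + Chemo 52 it was 3.82 (adjusted p = 0.394 by edgeR) and by DESeq2 3.89 (adjusted p = 0.0568). Against CTRL, MC + Chemo gave 2.46 (SE 0.78, adjusted p = 0.233 by edgeR and 0.0667 by DESeq2, exact permutation p = 0.0095), or 2.00 without MC + Chemo 52. Chemo against CTRL gave -1.82 (SE 0.99, unadjusted p = 0.0817). The Lean estimate of 3.23 (SE 1.07, adjusted p = 1.00 by edgeR) was 1.19 without Lean 21. The highest Cyp2e1 values were in Lean 21, MC + Chemo 52 and MC 41, which each also had the highest adipocyte sum of their group. MC + Chemo 25 and MC + Chemo 50, with low adipocyte sums of 1369 and 1861, had Cyp2e1 of 11.6 and 11.3. Chemo 33 and Chemo 34, with sums of 8941 and 7733, had 1.01 and 0. The part of fat was not tested.

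In all, MC + Chemo against Chemo had 0 of 35 murine members called by edgeR (0% of all genes) and 1 of 38 by DESeq2, Cyp2e1 (0.294%), with 4 at an unadjusted p below 0.05 (11%). Cyp2e1 was also the only member without overlap (1.33%). Its neighbors in that comparison were Cyp4f13 at -0.60 (SE 0.26), Cyp4f16 at -0.56 (SE 0.24) and Aldh3b2 at 3.26 (SE 1.42), all chosen after their values were seen. Aldh3b2 had only 9 reads in Chemo and 118 in MC + Chemo, of which 86 were in MC + Chemo 52. Without MC + Chemo 52 it was not tested by edgeR. MC + Chemo against CTRL had 0 of 35 by edgeR (0%) and 0 of 38 by DESeq2 (1.14%), with 5 at an unadjusted p below 0.05 (12.4%) and Cyp2e1 alone without overlap (2.54%). Aldh1a1, a retinaldehyde dehydrogenase, was 32.6, 52.1, 12.8 and 39.0 in CTRL and 15.4 to 204 in MC + Chemo (1.65, SE 0.61, adjusted p = 0.285 by edgeR). Aldh2 had 0.95 (SE 0.43), or 0.61 without MC + Chemo 52, where it was 1816. The interaction had 0 of 35 by edgeR (0%) and 0 of 38 by DESeq2 (0%), with 3 at an unadjusted p below 0.05 (6.87%).

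Cyp2r1, the murine vitamin D 25-hydroxylase, was chosen after its values were seen and was the member with the lowest unadjusted p of that interaction (1.49, SE 0.46, unadjusted p = 0.0042). CTRL tumors had 42.3, 25.1, 62.8 and 42.1 normalized counts, Chemo tumors 32.4, 22.1, 13.1, 18.7 and 23.8, MC tumors 12.7, 9.98, 28.6, 25 and 24.6, and MC + Chemo tumors 22.8 to 48.3. The log2 fold change was -0.96 in Chemo (SE 0.34), -1.05 in MC (SE 0.34, adjusted p = 0.252 by edgeR and 0.0880 by DESeq2), -0.53 in MC + Chemo (SE 0.32) and -0.87 in Lean (SE 0.34). None passed an adjusted test. These estimates and the interaction share CTRL 44, whose Cyp2r1 of 62.8 was the highest of all libraries. Without CTRL 44 the estimates were -0.73 in Chemo, -0.84 in MC and -0.64 in Lean, and the interaction is not given without it. The highest MC + Chemo value, 48.3, was that of MC + Chemo 25, with 29.9 next.

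The abundant murine P450s Cyp1b1 and Cyp26b1 did not separate the groups. Cyp1b1 was 239.6 to 546 normalized counts in CTRL, 522 to 794 in Chemo, 348 to 695 in MC, 212 to 938 in MC + Chemo and 450.4 to 735 in Lean, with log2 fold changes of 0.64 (SE 0.34) in Chemo and 0.59 (SE 0.32) in MC + Chemo. Cyp26b1 was 89.7 to 674 in CTRL, 306 to 586 in Chemo and 190.5 to 988 in MC, with log2 fold changes of 0.37 (SE 0.49), 0.70 (SE 0.49) in MC and 0.19 (SE 0.47) in MC + Chemo. Human CYP26B1 had negative estimates in these comparisons, which in MC turned to 0.06 without CTRL 17 and CTRL 44, and the difference between the genomes was not tested. Cyp4f18 was -0.62 (SE 0.32), -0.67 (SE 0.32) and -0.65 (SE 0.31) in Chemo, MC and MC + Chemo. These estimates share CTRL 44, whose Cyp4f18 of 397 was the highest of all libraries, against 234, 171 and 211 in CTRL 17, CTRL 31 and CTRL 70.

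**Figure D5:**
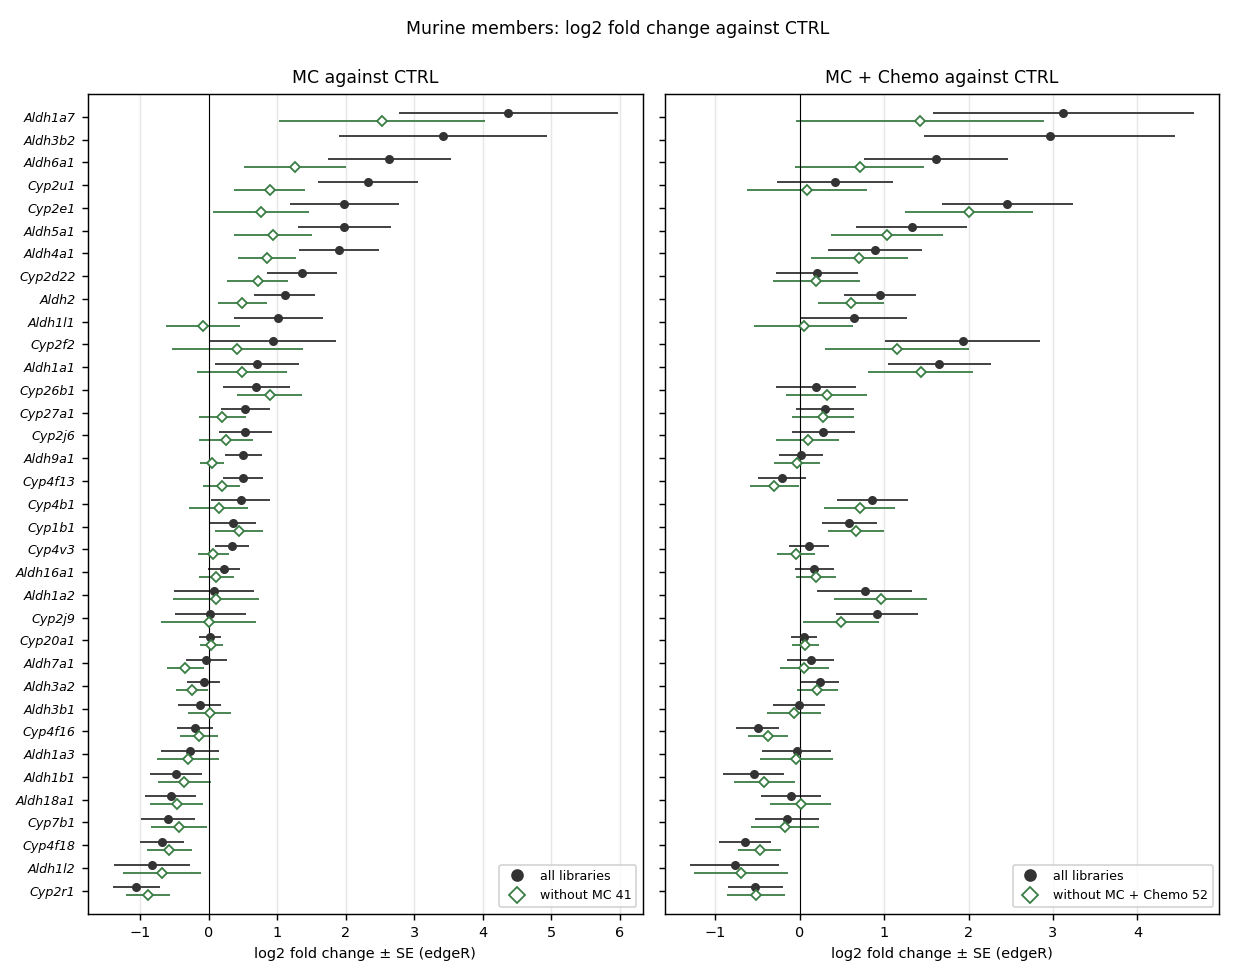
Log2 fold change (x axis, with SE bars) of the 35 tested murine members in MC (left) and MC + Chemo (right) against CTRL, from edgeR with all libraries (filled circles) and without MC 41 or MC + Chemo 52 (open diamonds; Aldh3b2 was not tested there). Aldh6a1 moves from 2.64 to 1.26 and Cyp2u1 from 2.33 to 0.89 without MC 41, while Cyp2e1 in MC + Chemo moves from 2.46 to 2.00.

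A symbol was shared between the genomes by 25 members. In 1 of the 25 pairs, CYP1B1 with Cyp1b1 in MC + Chemo 47, the library with the highest murine value also had the highest human value. In MC 41, where murine Cyp2u1 and Aldh6a1 were highest, human CYP2U1 was 90.6 and ALDH6A1 505 normalized counts, within the range of the other libraries. How reads matching both genomes were assigned is not given in the sources used here.

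Lists of genes around these enzymes were counted as well, and edgeR called 0 members of any list in any comparison in either genome. The electron donors of P450 enzymes (9 human and 8 murine tested) and the carriers, dehydrogenases and receptors of retinoids (13 human and 14 murine tested) also had 0 calls by DESeq2. Por, the reductase that serves microsomal P450s, was 179 to 221 normalized counts in murine CTRL and 651, 1464, 192, 225 and 218 in MC, so that the highest values were again those of MC 41 and MC 6. Its log2 fold change was 1.49 (SE 0.50, adjusted p = 0.268 by edgeR and 0.0846 by DESeq2, exact permutation p = 0.214), and 0.70 without MC 41. The xenobiotic receptors had 0 human calls. The glutathione and glucuronide conjugation enzymes had, by DESeq2, 2 of 14 human members higher and 1 lower in Chemo, and 5 of 14 higher and 1 lower in MC + Chemo, where 3.88% and 7.16% of all genes were called. They were GSTP1 and SULT2B1 as higher and GSTA4 as lower in Chemo, with GSTK1, MGST1 and MGST2 added as higher in MC + Chemo. The median log2 fold change of that list was 0.29 in Chemo and 0.22 in MC + Chemo, and -0.02 over all genes. GSTP1, a glutathione transferase, was 3025, 6937, 4544 and 5458 normalized counts in CTRL and 8432, 8992, 12604, 7912 and 7370.2 in Chemo, with no overlap (log2 fold change 0.85, SE 0.24, adjusted p = 0.0970 by edgeR and 0.0236 by DESeq2). Without CTRL 17 and CTRL 44 it was 0.54 (SE 0.26), and neither tool called a member of these lists in Chemo, MC or MC + Chemo against CTRL.

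Of the carbonyl reductases of doxorubicin, DESeq2 called AKR1B1 as higher (log2 fold change 0.94, SE 0.26) and AKR1C1 as lower (-2.14, SE 0.72) of 8 human members in MC + Chemo. AKR1C1 was 346 in CTRL 44 and 28.3, 24.9 and 10.5 in the other CTRL tumors. Without CTRL 17 and CTRL 44 its estimate turned to 0.42 (SE 0.65) and that of AKR1B1 was 0.52 (SE 0.24), and neither was called. In the murine table DESeq2 called Ppara, a fatty acid receptor, of 14 xenobiotic receptors and Gsta4 of 18 conjugation enzymes, both in MC, with log2 fold changes by edgeR of 6.56 (SE 1.67) and 5.71 (SE 1.57) that did not pass its adjusted test (0.242 for both). DESeq2 called 1.76% of all murine genes there. Ppara was 269.9 in MC 6, 1088 in MC 41 and below 9 in the other 3 MC and all 4 CTRL tumors. Gsta4 was 49.2 in MC 6, 208 in MC 41 and below 5 in those tumors. Neither was called without MC 41.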

How the data were processed

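Tumor RNA was sequenced as QuantSeq 3′ libraries with 50 bp forward reads. The read counts per gene used here are those deposited by the authors, made with BlueBee software against the human and the murine genome. Per the processing notes, GRCm38 and DESeq2 1.22.2 were used; the human build is not given in the sources used here. Every "normalized count" is from the normalized signal tables that were deposited by the authors, in which each count is divided by its library's size factor, set over all 24. No gene with fewer than 72 counts is in either table. Human reads were 47.8 to 74.0% of all counts. No 2 libraries of a group were identical.

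Counts were tested with the two-sided quasi-likelihood F test of edgeR 4.0.16 under R 4.3.3 with limma 3.58.1. Genes were filtered with filterByExpr, libraries scaled by TMM, and p-values adjusted over all genes tested by the Benjamini-Hochberg method. The fit held the 20 high fat diet libraries (all 24 for Lean), with calls at an adjusted p below 0.05. DESeq2 1.42.0 was the alternative. The exact permutation tests used log2 of the normalized count plus 1. Where a normalized count is 0, the limit given is 3 counts and covers counting error only. The edgeR and DESeq2 tests of MC + Chemo against CTRL were checked on simulated counts in each genome. The other comparisons and the permutation tests were not. Alternatives were DESeq2, no filter, other scaling, the compared groups alone, all 24 libraries, MC + Chemo 5 as MC, and each library left out in turn. A further alternative left out the 3 libraries with an extra RNA cleanup. There CYP2J2 in MC + Chemo against CTRL had a log2 fold change of 1.72 (adjusted p = 0.0472 by edgeR). Chosen after seeing the data were DESeq2 without each CTRL library, and both tools without CTRL 17 and CTRL 44, without MC 41, without MC + Chemo 52 and without both.

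The members and the gene lists were chosen with earlier results of these data known. Members given by name were those the study names, the 5 CYP and 5 ALDH of highest mean in each genome, those past an adjusted test by either tool, up to 3 per comparison without overlap and with the lowest unadjusted p, and 30 genes of known role, of which 15 were present. Others given with values for a comparison are said to be chosen after their values were seen. Sequences and genome positions were not used here.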

Additional observations from a re-analysis of the deposited data

Results flagged for a closer look

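A tumor was singled out where its gap to the next value of its group was large against the whole range of the group (Dixon's test at the 95% level). Chance gives about 1 in 20 where values follow a normal distribution, which was not checked for these counts. Of 210 sets of a member and a group, 23 were singled out. The sets share tumors and some members were named for their values, so this count cannot be weighed against that rate. MC 41 was the high tumor of its group in Aldh2 (2305 normalized counts, next 794), Aldh4a1 (390.0, next 124), Aldh6a1 (971, next 295), Aldh9a1 (342, next 144), Cyp2e1 (69.8, next 20.6), Cyp2u1 (511, next 141) and Cyp4v3 (310.2, next 171), and the low tumor in human CYP2R1 (78.8, next 112). MC + Chemo 52 was high in Aldh2 (1816, next 863), Aldh6a1 (467, next 125) and Cyp2u1 (79.2, next 41.2). Lean 21 was high in Cyp2e1 (168, next 27.7) and low in Cyp4f18 (124, next 208). Lean 24 was high in human ALDH18A1 (427, next 289) and low in Cyp2j9 (1.92, next 12.2). CTRL 44 was low in Cyp20a1 (94.8, next 146) and high in Cyp4v3 (169, next 142). Single cases were Aldh6a1 in Chemo 67 (18.1, next 52), human CYP26B1 in MC 48 (8.25, next 23.0), human CYP2J2 in Lean 54 (35.7, next 29.0), Cyp20a1 in Chemo 33 (93.8, next 124), Cyp2j9 in MC 6 (3.17, next 9.98) and Cyp2r1 in MC + Chemo 25 (48.3, next 29.9).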

How the results depend on the processing

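Counts of called members depended on the tool and on single CTRL libraries. The edgeR count of 0 for human Chemo was 2 by DESeq2, 1, 12 and 6 by DESeq2 without CTRL 17, CTRL 31 and CTRL 70, and 0 to 6 with each library left out (6 without CTRL 31, 3 without CTRL 70). For human MC it was 2 by DESeq2 without CTRL 31. The count of 1 for human MC + Chemo was 4 by DESeq2, 9, 2 and 5 by DESeq2 without CTRL 31, CTRL 44 and CTRL 70, 0 with the 2 groups alone, 3 with all 24 libraries, 2 with MC + Chemo 5 as MC, 0 by both tools without CTRL 17 and CTRL 44, and 0 to 8 with each library left out (8 without CTRL 31, 3 without CTRL 70, and 0 when CTRL 17, CTRL 44 or mouse 47 or 52 of MC + Chemo was dropped). For the human interaction it was 1, ALDH1A3, by DESeq2 without CTRL 31. On the murine side DESeq2 gave 2 for MC (0 without MC 41) and 1 for MC + Chemo against Chemo (0 without MC + Chemo 52, 1 with both MC 41 and MC + Chemo 52 left out). Over 36 log2 fold changes and 755 alternative values, 693 kept direction and side of the threshold, 51 passed it, 7 no longer did and 4 turned. Those 4 were in MC without CTRL 17 and CTRL 44, CYP20A1 (0.013 by edgeR, 0.020 by DESeq2) and CYP26B1 (0.059 and 0.067). Fewer controls remain there, and no other cause was tested. No paired analysis was possible because the mouse numbers are not shared between groups. Values under 3 counts in a library, as for CYP1B1, CYP11A1 and Cyp2e1 in some, carry a large counting error.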
